A study of Mus musculus with 8 samples.

Results

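Histone deacetylases (HDACs) remove acetyl groups from lysines of histones and other proteins. Of their genes, Hdac1 to Hdac9 and Hdac11 were taken by symbol from a count table of 26667 mouse genes. All 10 were found there, and a further gene, Hdac10, was not analysed. The tumours were undifferentiated pleomorphic sarcomas (UPS), a soft tissue sarcoma without a recognisable line of differentiation. Both groups of mice shared the engineered alleles of the KP model, Trp53 fl/fl among them, on a mixed 129/C57BL/6 background, and adenovirus carrying Cre (Ad-Cre) was injected into the right hind limb muscle to recombine them. KP mice are labelled wild type, and KPH2 mice were also Epas1 fl/fl, so that their tumours are labelled Epas1 -/-. Epas1 encodes HIF-2α, a transcription factor of the hypoxia response. Male and female mice of at least 8 weeks were injected and received BrdU 30 minutes before killing. The end point was a fixed 7 weeks for some mice and a limit on tumour size for others, and which applied to each tumour here is not given in the sources used. No histone deacetylase inhibitor is named for these tumours in the labels. RNA came from fixed, paraffin-embedded sections, with 1 library for each of 4 KP tumours (KP 5 to KP 8) and 4 KPH2 tumours (KPH2 1 to KPH2 4). Cre acts only in cells that took up the virus and their descendants. Other cells in a section, which may include host muscle, vessels and immune cells, keep an intact Epas1. Their share in each section was not measured. The study compared the groups to see which transcripts follow loss of HIF-2α, and separately asked whether HDACs hold Epas1 down in sarcoma.

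HDACs fall into classes by sequence and by the proteins they work with. Class I enzymes (Hdac1, Hdac2, Hdac3, Hdac8) are mostly nuclear, and all but Hdac8 form the catalytic core of large corepressor complexes such as SIN3, NuRD, CoREST and NCoR/SMRT. Class IIa members (Hdac4, Hdac5, Hdac7, Hdac9) have weak catalytic activity of their own, bind MEF2 transcription factors, and are sent out of the nucleus when kinases create docking sites for 14-3-3 proteins, a switch best known from skeletal and cardiac muscle. Hdac6 (class IIb) works mainly in the cytoplasm on tubulin and other proteins, and Hdac11 is the sole member of class IV. Vorinostat (SAHA) and Trichostatin A are inhibitors of this zinc-dependent family.

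Libraries held 6463221 (KP 6) to 13155510 (KP 5) counts. KPH2 1, which the study left out of its statistics as a technical outlier, is shown apart throughout. The text of the study gives the group sizes both as 3 KP with 4 KPH2 and as 4 with 3, and KPH2 1 is the tumour absent from its deposited table of 7. Comparisons are over the 7 other tumours, and values over all 8 are named as such. Levels are CPM, the counts of a gene scaled to the TMM-adjusted size of its library. Epas1, the deleted gene, had 59.2, 83.2, 86.9 and 84.1 CPM in the 4 KP tumours, 53.4, 37.7 and 42.5 CPM in KPH2 2, 3 and 4, and 32.6 CPM in KPH2 1. Every KPH2 tumour was below every KP tumour, with a log2 fold change of -0.81 ± 0.19 (SE) over the 7 tumours (-0.91 over all 8, adjusted p 0.117) and an adjusted p of 0.0742 (quasi-likelihood test of edgeR, adjusted after Benjamini-Hochberg over the whole table, hereafter the edgeR adjusted p). Xist, the transcript of the inactive X chromosome in females, was at 1660 CPM in KP 8 and 1751 CPM in KPH2 4 and at 1.9 to 3.11 CPM in the other 6 tumours, which places 1 female tumour in each group. All 6 mesenchymal markers examined were detected in every tumour.

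All 10 HDAC genes were expressed in every tumour and passed the filter on low counts. None of the 10 passed the edgeR adjusted p of 0.05, where 1.96% of the 14867 tested genes did. Unadjusted, 2 of the 10 had a p under 0.05, both higher in KPH2, beside 17.8% of all tested genes (8.5% higher and 9.26% lower). The log2 fold change of KPH2 2 to 4 against KP was positive for 5 members and negative for 5, with a median of 0.03 beside -0.02 over all tested genes. Its median absolute size was 0.28 for the members and 0.27 for all tested genes. The 2 members at the unadjusted threshold, Hdac6 and Hdac11, were also the 2 whose groups did not overlap in these 7 tumours, both higher in KPH2, and 16.9% of all tested genes separated the groups, 8.67% in that direction. With KPH2 1 included, no member of the 10 was called (0.00675% of 14805 tested genes were), no member separated the groups (8.15% did), and only Hdac9, lower in KPH2, had an unadjusted p under 0.05 (14.7% did, 8.02% in that direction). These are whole-tumour libraries, in which fewer cells of a type and less RNA per cell cannot be told apart.

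**Figure D1:**
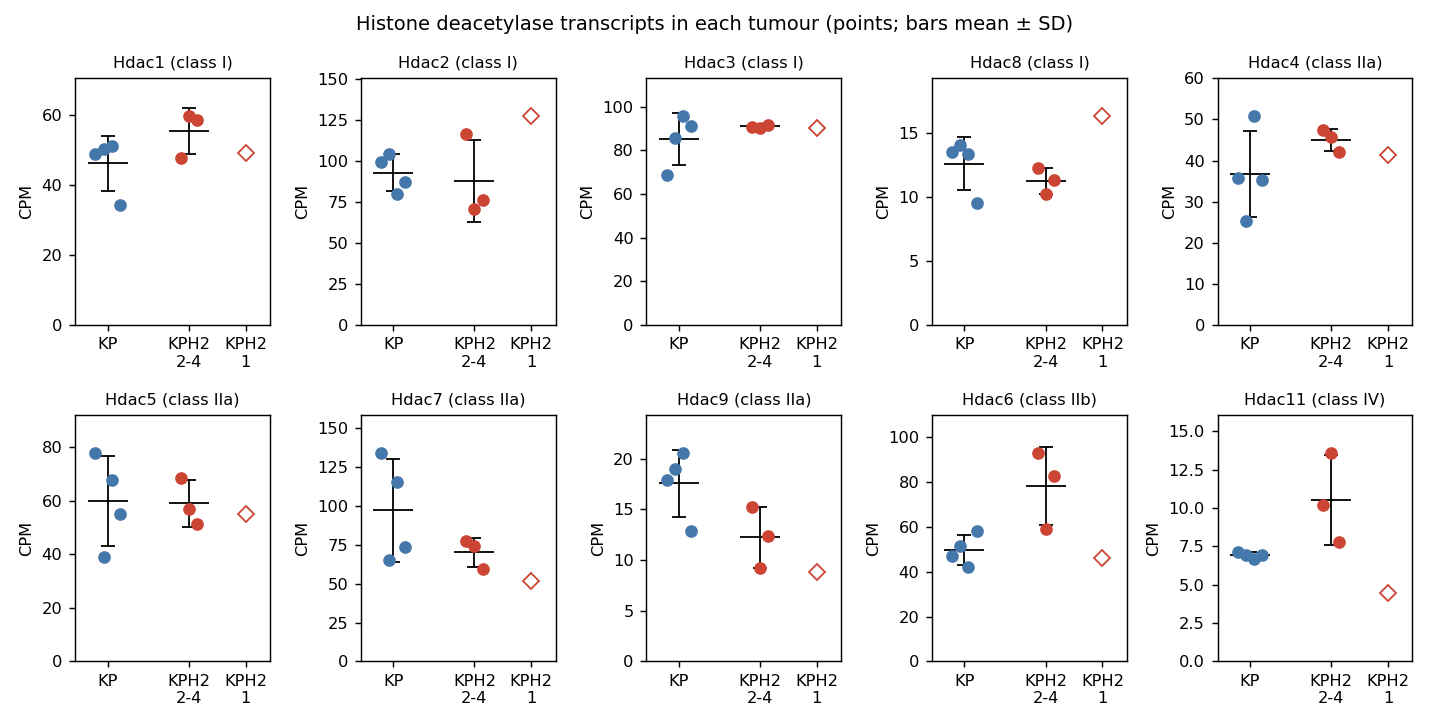
Level of each of the 10 HDAC genes (CPM, linear axis from 0) in every tumour, with KP in blue, KPH2 2 to 4 in red and KPH2 1 as an open diamond; bars give the mean ± SD of KP (n = 4) and KPH2 2 to 4 (n = 3). Hdac6 and Hdac11 are the panels in which KPH2 2 to 4 lie above all KP tumours, and in both the open diamond lies below all of KPH2 2 to 4.

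Hdac6, a deacetylase of tubulin with a pair of catalytic domains, had the largest log2 fold change of the 10 over the 7 tumours. The gene lies on the X chromosome (GRCm38 chrX:7930116-7948047, minus strand, Entrez Gene 15185). Its level was 46.9, 51.4, 42.3 and 58.2 CPM in KP 5, 6, 7 and 8, 93.1, 59.1 and 82.6 CPM in KPH2 2, 3 and 4, and 46.3 CPM in KPH2 1. KPH2 2 and KPH2 4 were well above all KP tumours, KPH2 3 was just above KP 8, and KPH2 1 lay within the KP range. The mean was 49.7 ± 6.79 CPM in KP (SD, n = 4) and 78.3 ± 17.4 CPM in KPH2 2 to 4 (SD, n = 3), a fitted ratio of 1.57 with a 95% interval of 1.16 to 2.13 and an edgeR adjusted p of 0.128. With all 8 tumours the ratio was 1.41 (0.992 to 2.02) and the edgeR adjusted p was 0.349. Because Hdac6 is X-linked, the sex of the tumours was also entered. With the Xist level as covariate its log2 fold change was 0.64 (edgeR adjusted p 0.159), and over the 5 of the 7 tumours with Xist under 10 CPM it was 0.72 (edgeR adjusted p 0.324).

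Hdac11, the class IV enzyme, is known for removing long fatty acyl groups from lysines. It lies at chr6:91156670-91174692 of GRCm38 (plus strand, Entrez Gene 232232). Its level was 7.13, 6.93, 6.67 and 6.94 CPM in KP 5, 6, 7 and 8, 10.2, 13.6 and 7.78 CPM in KPH2 2, 3 and 4, and 4.48 CPM in KPH2 1. The 4 KP tumours were closely spaced, KPH2 2 to 4 were all above them, and KPH2 1 was the lowest of all 8. Means were 6.92 ± 0.188 CPM in KP (SD, n = 4) and 10.5 ± 2.93 CPM in KPH2 2 to 4 (SD, n = 3), with a fitted ratio of 1.52 (95% interval 1.04 to 2.21) and an edgeR adjusted p of 0.234. Over all 8 tumours the ratio was 1.3 (0.79 to 2.14) and the edgeR adjusted p 0.625. Its counts, 45 to 136 per tumour, were the lowest of the members, so that counting alone gives a coefficient of variation of 14.9% at the lowest count. Its exons share 96 bases with Gm14573 and 594 bases with Gm44002 on the opposite strand. The libraries were stranded, but the strand setting of the counting is not given in the sources used here, so reads of these neighbours may be included.

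For Hdac6, Hdac11 and Hdac5 the bases just before the first annotated start are printed, for Hdac6 and Hdac11 only the first 92 and 105 bases of a 250-base window, since the rest of it lies within the annotated gene. Each of these 2 windows holds 2 matches, of which 1 falls in the printed bases. Hdac6 and Hdac11 were chosen for their separation of the groups, and Hdac5 for the only MEF2 match among the members. Promoter windows (250 bases before a RefSeq start, GRCm38.p6) were found for 8 of the 10 members, 12 windows in all. Capitals mark ACGTG or GCGTG, read on either strand, in Hdac6 and Hdac11, and a MEF2 motif match in Hdac5, with both strands searched. The former pair are the core letters that HIF dimers bind.
Hdac6, chrX:7948048-7948139, minus strand: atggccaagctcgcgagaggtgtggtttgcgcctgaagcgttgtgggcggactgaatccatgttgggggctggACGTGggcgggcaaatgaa
Hdac11, chr6:91156565-91156669, plus strand: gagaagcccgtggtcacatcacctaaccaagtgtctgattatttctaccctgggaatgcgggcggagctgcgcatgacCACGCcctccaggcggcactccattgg
Hdac5, chr11:102230173-102230422, minus strand: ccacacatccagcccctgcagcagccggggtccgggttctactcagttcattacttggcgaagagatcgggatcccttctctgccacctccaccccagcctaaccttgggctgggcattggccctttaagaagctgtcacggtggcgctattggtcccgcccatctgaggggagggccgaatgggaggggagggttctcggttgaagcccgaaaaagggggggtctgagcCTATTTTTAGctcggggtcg
ACGTG or GCGTG occurred in 3 of the members' 12 windows, those of Hdac6 and Hdac11 and 1 of 4 of Hdac7, and in 38.6% of the 32851 windows of all genes. The MEF2 motif occurred in 1 of the 12, that of Hdac5, and in 2.92% of all windows. CACGTG, which contains ACGTG, was in none of the members' windows and in 6.02% of all. These are letter matches in fixed windows.

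Hdac9 and Hdac7 had the most negative log2 fold changes. Hdac9, a class IIa corepressor that restrains MEF2 in muscle, spans chr12:34047580-34917095 (minus strand, Entrez Gene 79221). It stood at 17.9, 19, 20.6 and 12.9 CPM in KP 5, 6, 7 and 8, against 15.2, 9.21 and 12.4 CPM in KPH2 2, 3 and 4 and 8.79 CPM in KPH2 1. All KPH2 tumours were below KP 5, 6 and 7, but KPH2 2 was above KP 8. The mean was 17.6 ± 3.32 CPM in KP (SD, n = 4) and 12.3 ± 3 CPM in KPH2 2 to 4 (SD, n = 3). The fitted ratio was 0.699 (95% interval 0.475 to 1.03, edgeR adjusted p 0.316) over 7 tumours and 0.649 (0.448 to 0.941, edgeR adjusted p 0.282) over all 8. Counts were low, 92 to 241 per tumour.

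Hdac7 is the class IIa member best known from endothelium and developing thymocytes, and lies at chr15:97792661-97844502 (minus strand, Entrez Gene 56233). Its levels were 134.3, 65.2, 115.3 and 73.7 CPM in KP 5, 6, 7 and 8, 77.2, 74 and 59.5 CPM in KPH2 2, 3 and 4, and 51.7 CPM in KPH2 1. KP 5 and KP 7 stood well above all other tumours, while KP 6 and KP 8 lay within the range of KPH2 2 to 4. The fitted ratio was 0.722 (95% interval 0.473 to 1.1, edgeR adjusted p 0.411) over 7 tumours and 0.675 (0.456 to 1, edgeR adjusted p 0.341) over 8. KP 5 and KP 7 were also the tumours with the highest summed level of the 6 mesenchymal markers, 17470 and 10702 CPM, but KPH2 3 followed at 10266 CPM with an Hdac7 level among the middle ones. Endothelial markers (10 genes, none at 0 in any tumour) summed to 388.9 to 648.8 CPM in KP, 368.9 to 386.3 CPM in KPH2 2 to 4 and 280.8 CPM in KPH2 1. Of their log2 fold changes 8 of 10 were negative, and 5 of 10 were lower at an unadjusted p under 0.05, beside 9.26% of all tested genes. Over all 8 tumours 7 of 10 were at that threshold, beside 14.7%. In both fits 0 were called. KPH2 1 was the lowest of all 8 for these markers and for Hdac7, whereas KP 5, the highest for Hdac7, had the lowest of the KP sums. The part of these cells in the Hdac7 values was not tested. Exons of Hdac7 share 29 bases with Slc48a1 on the opposite strand.

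Hdac4 and Hdac5 are the class IIa members that carry calcium and nerve signals to muscle genes. Hdac4 (chr1:91928779-92195702, minus strand, Entrez Gene 208727) was at 35.6, 25.2, 50.8 and 35.2 CPM in KP 5, 6, 7 and 8, with 47.3, 45.7 and 42 CPM in KPH2 2, 3 and 4 and 41.3 CPM in KPH2 1. The 4 KPH2 tumours were close together and lay inside the wider KP range, below KP 7 and above the other 3. KPH2 against KP gave a log2 fold change of 0.29 ± 0.23 (SE), with a 95% interval of -0.22 to 0.81 and an edgeR adjusted p of 0.552, and 0.26 over all 8 tumours. Hdac4 shares 3536 exon bases with the opposite-strand gene Gm26720, which has no row in the count table. Hdac5 (chr11:102195747-102230172, minus strand, Entrez Gene 15184) was at 78, 39.2, 67.6 and 55.2 CPM in KP 5, 6, 7 and 8, with 68.6, 56.9 and 51.5 CPM in KPH2 2, 3 and 4 and 55 CPM in KPH2 1. Its lowest and highest levels were both in KP tumours, and its log2 fold change was -0.03 ± 0.24 (SE), with an interval of -0.57 to 0.52 and an edgeR adjusted p of 0.969, and -0.05 over all 8.

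Of the class I genes, Hdac3, Hdac1 and Hdac8 had the smallest spread over the 8 tumours of the 10 members. Hdac3, the catalytic subunit of NCoR/SMRT (chr18:37936971-37955015, minus strand, Entrez Gene 15183), was at 68.7, 85.5, 95.8 and 91.2 CPM in KP 5, 6, 7 and 8, with 90.9, 90.4 and 91.6 CPM in KPH2 2, 3 and 4 and 90.2 CPM in KPH2 1. The KPH2 tumours were almost level, and only KP 5 was far from the rest. The log2 fold change was 0.09 ± 0.15 (SE), with a 95% interval of -0.25 to 0.43 (edgeR adjusted p 0.806), or a ratio from 0.842 to 1.35, and was also 0.09 over all 8 and 0.01 without KP 5. The SD of its log2 CPM over the 8 tumours, 0.15, was smaller than that of all but 4.45% of tested genes.

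Hdac1 and Hdac2 are close relatives that share SIN3, NuRD and CoREST. Hdac1 (chr4:129516104-129542646, minus strand, Entrez Gene 433759) was at 48.7, 50.2, 51 and 34.3 CPM in KP 5, 6, 7 and 8, with 47.7, 59.6 and 58.6 CPM in KPH2 2, 3 and 4 and 49.2 CPM in KPH2 1. KP 8 stood below the other tumours, KPH2 3 and KPH2 4 stood above them, and the 5 others lay between 47.7 and 51 CPM. The log2 fold change was 0.26 ± 0.18 (SE), with an interval of -0.15 to 0.68 and an edgeR adjusted p of 0.505, and 0.22 over all 8 tumours. An annotated pseudogene, Hdac1-ps (chr17:78491565-78493541, 1977 bases), has no row in the table, and since the authors counted unique alignments, reads that match both places may be missing from the Hdac1 counts. Hdac2 (chr10:36974297-37001889, plus strand, Entrez Gene 15182) was at 99.4, 104.4, 79.9 and 87.3 CPM in KP 5, 6, 7 and 8, with 116.2, 70.4 and 75.8 CPM in KPH2 2, 3 and 4 and 127.3 CPM in KPH2 1. The highest and the lowest of the 8 values were both in KPH2 tumours. The log2 fold change of Hdac2 was -0.09 ± 0.20 (SE) over 7 tumours, with an interval of -0.55 to 0.38 (edgeR adjusted p 0.874), and 0.07 over all 8.

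Hdac8, the X-linked class I enzyme that deacetylates the cohesin subunit SMC3, lies at chrX:102284638-102505381 (minus strand, Entrez Gene 70315). Its levels were 13.5, 14, 13.3 and 9.51 CPM in KP 5, 6, 7 and 8, 12.2, 10.2 and 11.3 CPM in KPH2 2, 3 and 4, and 16.3 CPM in KPH2 1. KP 8 was again the lowest and KPH2 1 the highest. Between the groups its log2 fold change was -0.16 ± 0.21 (SE), with an interval of -0.64 to 0.31 and an edgeR adjusted p of 0.742, and -0.01 with KPH2 1 included. Of the 2 tumours with high Xist, KP 8 was the lowest of its group for Hdac8 and the highest for Hdac6, while KPH2 4 was the middle one of KPH2 2 to 4 for both.

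**Figure D2:**
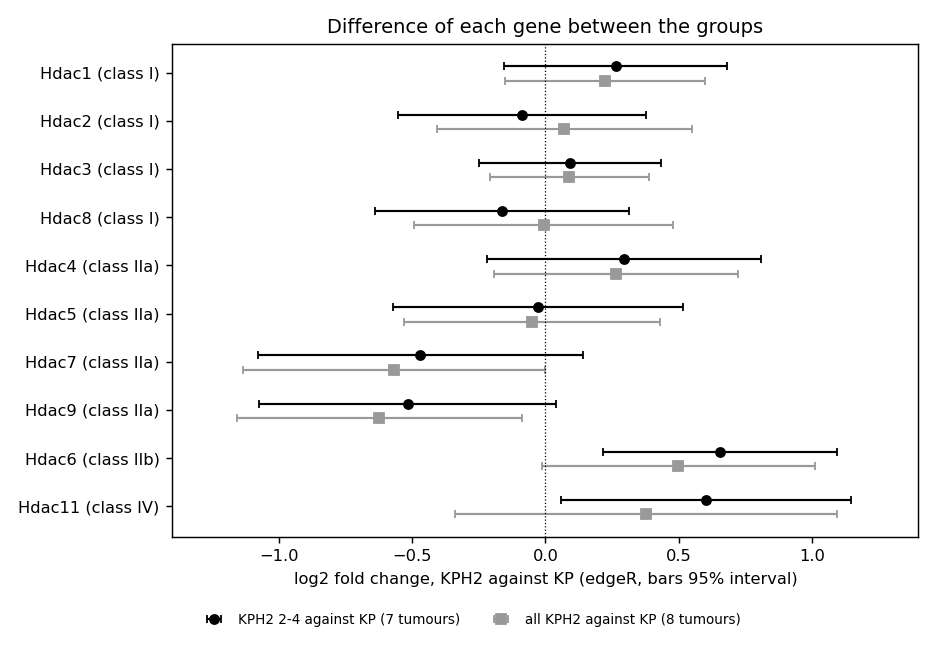
Log2 fold change of each HDAC gene, KPH2 against KP, from edgeR, for KPH2 2 to 4 (black circles, 7 tumours) and for all KPH2 tumours (grey squares, 8 tumours), with bars for the 95% interval. Of the black intervals only those of Hdac6 and Hdac11 leave out 0, and of the grey ones only that of Hdac9.

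KPH2 1 took an extreme place for 5 members. It was the lowest of all 8 tumours for Hdac7, Hdac9 and Hdac11 and the highest for Hdac2 and Hdac8. Other tumours came near this number, as KP 7 was the highest for 3 members and the lowest for 1. KP 5 was the highest for 2 and the lowest for 1. Including KPH2 1 moved the log2 fold change of Hdac6 from 0.65 to 0.50 and that of Hdac11 from 0.60 to 0.38, that of Hdac9 from -0.52 to -0.62, that of Hdac7 from -0.47 to -0.57, that of Hdac8 from -0.16 to -0.01 and that of Hdac2 from -0.09 to 0.07.

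Because the genes differ in length, levels are compared between genes per kilobase, first of merged exons (CPM per kb). In KP tumours Hdac3 at 21 ± 2.92 and Hdac2 at 20.7 ± 2.5 CPM per kb (SD, n = 4) were the most abundant, followed by Hdac7 at 14.4 ± 4.89 and Hdac1 at 13.4 ± 2.29. Hdac6 at 8.54 ± 1.17 and Hdac5 at 6.83 ± 1.9 came next. The 4 remaining genes were Hdac8 at 2.6 ± 0.429, Hdac4 at 2.32 ± 0.669, Hdac11 at 1.8 ± 0.049 and Hdac9 at 1.2 ± 0.226 CPM per kb. Neighbours in this order had overlapping KP ranges except at the steps from Hdac5 to Hdac8 and from Hdac11 to Hdac9. In KPH2 2 to 4 the order from the top was Hdac3 (22.4 CPM per kb), Hdac2 (19.6), Hdac1 (16.1), Hdac6 (13.5) and Hdac7 (10.4), so Hdac7 ranked 3 of 10 in KP and 5 of 10 there. With the longest transcript in place of merged exons, Hdac2 came first in KP tumours (28.5 CPM per kb), ahead of Hdac3 (23.8) and Hdac1 (22.6), so the order at the top depends on the length used. Merged exons and longest transcripts differed most for Hdac8 (4839 and 2267 bases), Hdac4 (15813 and 8100) and Hdac9 (14665 and 7940), and the KP level of Hdac8 was 2.6 CPM per kb by the former and 5.56 by the latter.

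The 10 genes together stood at 92.8 ± 5.98 CPM per kb in KP (SD, n = 4) and 97.4 ± 8.1 in KPH2 2 to 4 (SD, n = 3), a difference within the spread between tumours. Class I genes held 57.1, 69.1, 60.6 and 62.7% of this sum in KP 5, 6, 7 and 8, 60.7, 62.4 and 63.1% in KPH2 2, 3 and 4, and 72.3% in KPH2 1. The mean class I share was 62.4 ± 5.06% in KP (SD, n = 4) and 62.1 ± 1.24% in KPH2 2 to 4 (SD, n = 3). Class IIa held 26.4 ± 6.27% in KP and 21.3 ± 1.68% in KPH2 2 to 4, with overlapping ranges, and 18.1% in KPH2 1. Hdac6, the only class IIb gene among the 10, held 8.2, 9.86, 7.46 and 11.6% in the KP tumours and 15, 11 and 15.2% in KPH2 2, 3 and 4. On this scale KPH2 3 fell below KP 8. The class IV share was 1.94 ± 0.139% in KP and 2.83 ± 0.89% in KPH2 2 to 4, and 1.23% in KPH2 1.

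**Figure D3:**
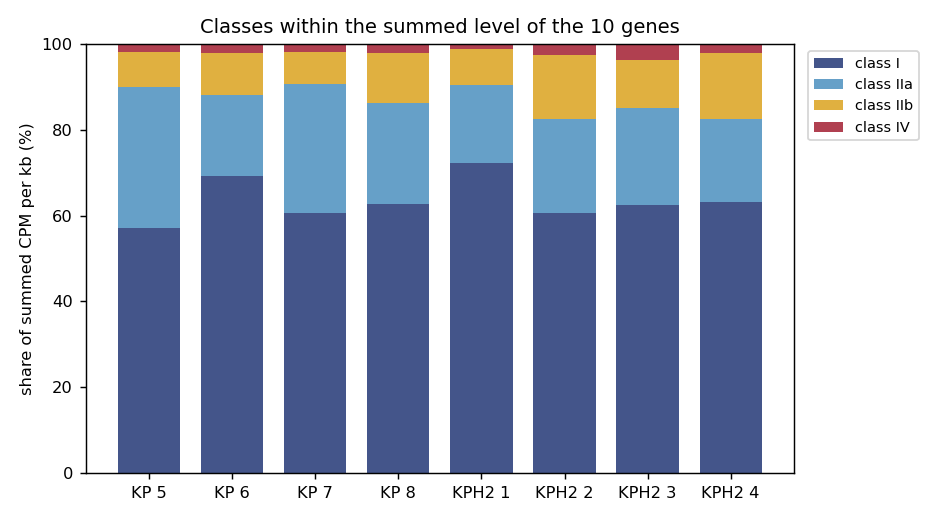
Share (%) of each class in the summed per-length level (CPM per kb of merged exons) of the 10 HDAC genes, stacked to 100% for each tumour. Class I makes up 57.1% (KP 5) to 72.3% (KPH2 1) of the sum.

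The highest tumour exceeded the lowest 1.39 times for Hdac3, 1.71 to 2.02 times for Hdac8, Hdac1, Hdac2, Hdac5 and Hdac4, and 2.2, 2.34, 2.6 and 3.04 times for Hdac6, Hdac9, Hdac7 and Hdac11. The SD of log2 CPM over the 8 tumours was below the median of all tested genes (0.36) for 6 members, all of class I with Hdac4 and Hdac5, and above it for Hdac6 (0.41), Hdac9 (0.46), Hdac11 (0.46) and Hdac7 (0.46). Profiles over the 8 tumours were compared by the root mean square difference of their centred log2 CPM values, in which 0 means the same profile. Of the 45 pairs of members, Hdac2 and Hdac8 were closest (0.21), followed by Hdac4 and Hdac5 (0.25) and Hdac1 and Hdac3 (0.26). Hdac6 and Hdac7 were farthest apart (0.67). Genes with small spread are close to each other by this measure whatever their order, and all points come from the same 8 libraries.

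Among all other tested genes, Hdac3 was closest to Plaa (0.05) and Rrn3 (0.06), Hdac2 to Cand1 (0.06) and Cenpw (0.07), and Hdac1 to Alkbh8 and Stau2 (both 0.08). Hdac8 was closest to Gm4787 (0.07) and Tcp11l2 (0.09), Hdac4 to Reep4 and Sqstm1 (both 0.08), and Hdac5 to Mfsd10 and Stk19 (both 0.09). The more variable members had more distant neighbours, Cdc14a (0.10) and Zfp36l2 (0.14) for Hdac6, Mfsd7a (0.11) and Sgcb (0.14) for Hdac11, Gm10791 (0.14) and Gm19551 (0.15) for Hdac9, and Lima1 (0.17) and Zfp423 (0.18) for Hdac7. Mfsd7a, the closest to Hdac11, had 4.53 to 5.5 CPM in KP, 7.2, 8.31 and 4.85 CPM in KPH2 2, 3 and 4, and 3.12 CPM in KPH2 1. Sgcb, the second closest, encodes a subunit of the sarcoglycan complex of muscle membranes. It had 25.8 to 32.7 CPM in KP, 42.9, 45.3 and 31.2 CPM in KPH2 2, 3 and 4, and 16.5 CPM in KPH2 1.

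Skeletal muscle markers had the largest median log2 fold change of the marker lists over the 7 tumours, but their summed level was lowest in KPH2 1. Of 30 markers, none at 0 in any tumour, all 30 had a positive log2 fold change over the 7 tumours with a median of 2.20, and 3 were higher in KPH2 2 to 4 by the edgeR adjusted p, the enolase Eno3 (log2 fold change 2.98, edgeR adjusted p 0.00922), Myoz2 (3.32, 0.0418) and Neb (2.23, 0.043). With all 8 tumours none of the 30 was called (edgeR adjusted p 0.159 for Eno3, 0.231 for Myoz2 and 0.243 for Neb), and the median log2 fold change was 1.85. Their sum was 1985 to 3552 CPM in KP, 12791, 20165 and 4397 CPM in KPH2 2, 3 and 4, and 1545 CPM in KPH2 1. Hdac11 ran through the 8 tumours in the same order as this sum, from KPH2 3 down to KPH2 1, except that KP 5 and KP 8 changed places. Its 4 KP levels, 6.67 to 7.13 CPM from 45 to 96 counts, lie within counting error of each other. Their order carries little information. For Hdac6 the 4 tumours with the highest muscle sums were also its 4 highest, but in the order KPH2 2, KPH2 4, KPH2 3 and KP 8. Hdac6 and Hdac11 are shown because KPH2 2 to 4 lay above all KP tumours, as they also do for the muscle sum. That part of the shared order was therefore given by the choice of genes, and the orders of the other members are not described. With the mean log2 level of the 30 markers as covariate, the log2 fold change was -0.01 ± 0.40 (SE, edgeR adjusted p 0.998) for Hdac11 and 0.74 ± 0.36 (SE, edgeR adjusted p 0.778) for Hdac6. In the same fit it was -0.11 ± 0.47 (SE, edgeR adjusted p 0.983) for Hdac9 and -0.75 ± 0.52 (SE, edgeR adjusted p 0.906) for Hdac7, and 3 of all tested genes were called. The muscle level and the group are close to confounded in these 7 tumours, since KPH2 2 to 4 all lie above KP, and their parts cannot be told apart. In the other marker lists (vessels, macrophages, lymphocytes, fat, Schwann cells, mesenchyme, dividing cells) 2 genes were called, among them Pdgfra of mesenchyme (log2 fold change -2.02, edgeR adjusted p 0.0183, and 0.16 with all 8 tumours, where no marker was called), and the 12 macrophage markers, all with negative values, summed to 1794 to 3041 CPM in KP, 1223 to 1985 CPM in KPH2 2 to 4 and 1406 CPM in KPH2 1.

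**Figure D4:**
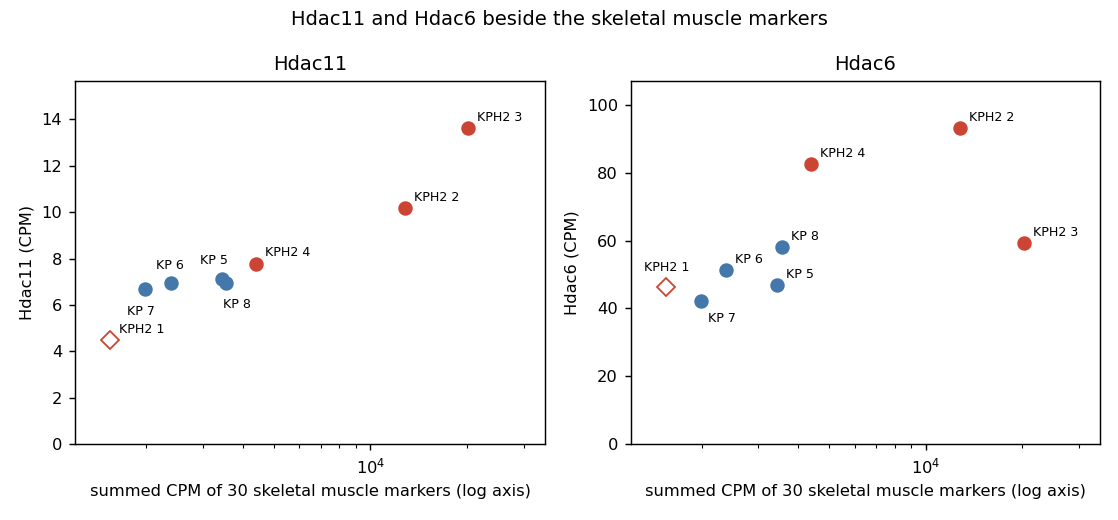
Level of Hdac11 (left) and Hdac6 (right) in CPM, on linear axes from 0, against the summed CPM of 30 skeletal muscle markers on a log axis, with 1 labelled point per tumour (KP blue, KPH2 red, KPH2 1 open). Hdac11 runs from 4.48 CPM in KPH2 1 to 13.6 CPM in KPH2 3, the lowest and highest for muscle. For Hdac6 the 4 tumours highest for muscle are also the highest, with KPH2 3 at 59.1 CPM below KPH2 2 and KPH2 4. Both genes are shown because KPH2 2 to 4 lie above all KP tumours, as they do for muscle.

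The partners of the HDACs were taken from 12 lists of 92 genes, of which 91 could be tested and 0 passed the edgeR adjusted p of 0.05. With an unadjusted p under 0.05 there were 17 (18.7%, beside 17.8% of all tested genes), and over all 8 tumours 15 (16.5%, beside 14.7%) with 0 called. In the complexes of class I, 1 of 14 SIN3 genes, 1 of 9 NuRD genes, 1 of 7 CoREST genes, 0 of 5 NCoR and SMRT genes and 0 of 3 MiDAC genes had an unadjusted p under 0.05, all with positive log2 fold changes. By smallest p, the leading gene of each was Sin3b, a scaffold of SIN3 (log2 fold change 0.60, edgeR adjusted p 0.139), Gatad2a of NuRD (0.44, 0.237), Rcor2 of CoREST (0.68, 0.204), Tbl1x of NCoR and SMRT (0.23, 0.363) and Dnttip1 of MiDAC (0.35, 0.427). Of these, Sin3b stood at 55.6 to 88.8 CPM in KP, 105 to 124 CPM in KPH2 2 to 4 and 79 CPM in KPH2 1, and so, like Hdac6, separated the 7 tumours but not the 8.

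On the class IIa side, 3 of 4 MEF2 genes could be tested, and Mef2a had the smallest p (log2 fold change 0.38, edgeR adjusted p 0.272). Of 14 kinases that act on class IIa HDACs, 3 had positive and 2 negative log2 fold changes at an unadjusted p under 0.05, with Camk1d first (-0.85, edgeR adjusted p 0.0794), at 120 to 194.1 CPM in KP, 71.9 to 91.4 CPM in KPH2 2 to 4 and 174.6 CPM in KPH2 1 (-0.47 over all 8 tumours, edgeR adjusted p 0.516). Ywhae had the smallest p of 7 genes for 14-3-3 proteins (0.40, edgeR adjusted p 0.169). Among the 7 sirtuins, the NAD-dependent deacetylases of class III, 0 had an unadjusted p under 0.05 (Sirt5 first, 0.43, edgeR adjusted p 0.369). Of 12 acetyltransferases, 1 had, Ncoa3 (-0.32, edgeR adjusted p 0.208), and of 3 BET readers of acetyl-lysine 0 had.

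In denervated muscle Hdac4 is known to repress Dach2, itself a repressor of myogenin (Myog), whose targets include acetylcholine receptor subunits and Musk. Of these 7 genes, 6 had positive values with an unadjusted p under 0.05 (Myog, Chrna1, Chrnb1, Chrnd, Chrng, Musk), beside 8.5% of all tested genes in that direction. The median over the 7 was 2.90, beside -0.02 for all tested genes. Over all 8 tumours 4 of the 7 had an unadjusted p under 0.05 (beside 14.7% of all tested genes), 0 were called and the median was 2.60. Dach2, the gene that Hdac4 represses, was at 0.296 to 2 CPM in KP, 0.27 to 1.2 CPM in KPH2 2 to 4 and 0.16 CPM in KPH2 1, with a log2 fold change of -0.94 (edgeR adjusted p 0.514). Chrnb1, a subunit of the acetylcholine receptor, had the smallest p, with 6.46, 25, 20.6 and 10.3 CPM in KP 5, 6, 7 and 8, 52.1, 78.5 and 71.8 CPM in KPH2 2, 3 and 4 and 14.5 CPM in KPH2 1 (log2 fold change 2.13, edgeR adjusted p 0.0545). Myog was at 0.148 to 14.4 CPM in KP, 60.5, 125.9 and 18.7 CPM in KPH2 2, 3 and 4 and 0.719 CPM in KPH2 1 (3.82, edgeR adjusted p 0.105). These are themselves transcripts of muscle and of regenerating muscle fibres, the skeletal muscle markers above were higher in the same 3 tumours, and the part of muscle content in their values was not tested. Hdac4 itself lay below KP 7 and above KP 5, KP 6 and KP 8 in those tumours, and its part in the values was not tested either.

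**Figure D5:**
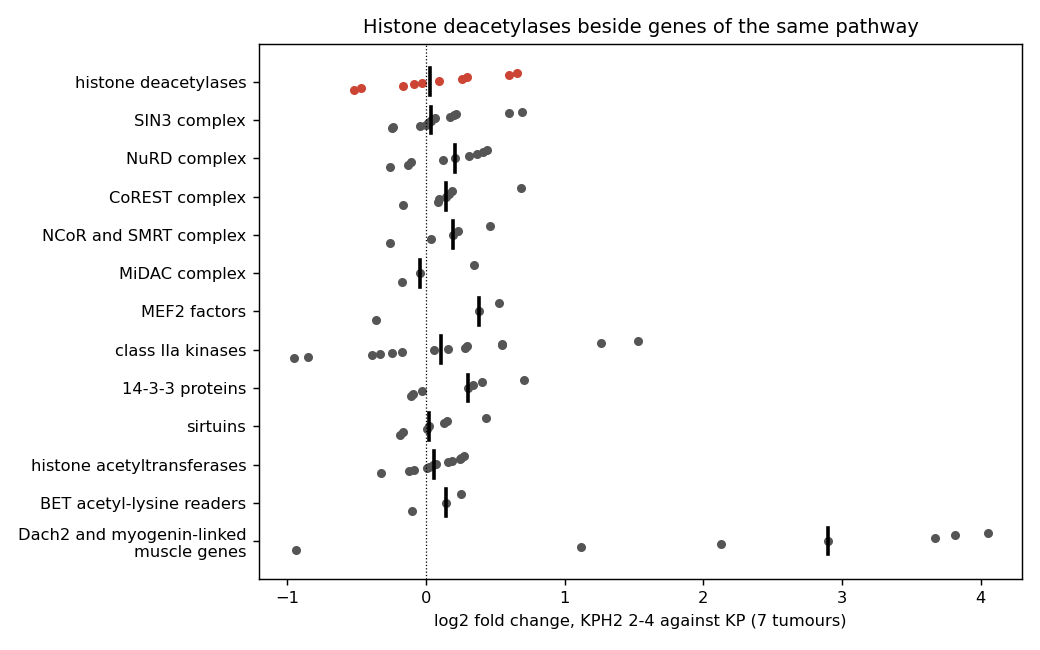
Log2 fold change of KPH2 2 to 4 against KP (7 tumours) for the 10 HDAC genes (red) and for the tested genes of 12 related lists (grey), with 1 point per gene and a black bar at the median of each list. The HDAC median lies at 0.03, and that of the 7 genes made up of Dach2, Myog, receptor subunits and Musk at 2.90.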

How the data were processed

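The authors extracted RNA from fixed tumour sections, made TruSeq Stranded libraries after Ribo-Zero Gold depletion, aligned with STAR 2.4 (GRCm38), and used htseq-count 0.6.1 on RefSeq transcripts, unique alignments only. The deposited raw counts of all 8 tumours were used for every test. The deposited log2 values (DESeq2 1.6 regularized log, 1 table over 7 tumours without KPH2 1 and 1 over 8) served as an alternative only. Versions are from the paper's methods and the submitters' processing notes.

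Counts were fitted with edgeR 4.0.16 in R 4.3.3 over all genes that passed its filter (minimum count 10, minimum total 15), with TMM scaling and the robust quasi-likelihood test, without covariates. P-values were adjusted by Benjamini-Hochberg over the tested genes (threshold 0.05), and intervals are 95%. They measure the spread between these tumours, 1 library each. Log2 CPM used a prior count of 2. The biological coefficient of variation was 0.313 over 7 tumours and 0.347 over 8. Total counts ran from 6463221 to 13155510. Exon lengths came from GENCODE vM21 (GRCm38), positions and promoters from RefSeq (GRCm38.p6). The fit was tested on simulated data.

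All members, Epas1, the gene of each related list that passed the threshold or otherwise had the smallest p, called marker genes and the 2 genes most like each member are named. Some items set by this rule are not reported here. Sgcb was described further after its values were seen. Members and lists were chosen with earlier results of these data known. Alternatives were all 8 tumours, DESeq2 1.42.0, other scaling and filters, no robust estimates, leaving out each tumour, a muscle marker covariate, the authors' log2 values and the longest transcript as length. The Xist covariate and the low-Xist subset were chosen after seeing the data. A further deacetylase gene, Hdac10, was not analysed here.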

Additional observations from a re-analysis of the deposited data

Results flagged for a closer look

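In groups of 4 tumours, 1 value was marked where its gap to the nearest tumour took up more of the group's range than the 95% critical value of Dixon's test. Both groups of all 10 HDAC genes were examined, 20 groups in all, and 2 were marked, where chance marks about 1 in 20 groups. Both lay in KP 8. Hdac1 stood at 34.3 CPM there, a gap of 0.863 of the KP range below the other KP tumours. Hdac8 stood at 9.51 CPM, a gap of 0.852 of the range. KP 8 is 1 of the 2 tumours with high Xist, and its total count was 12672535, the second highest of the KP tumours, and the part of either in the 2 values was not tested. Leaving out KP 8 moved the log2 fold change of Hdac1 from 0.26 to 0.14 and that of Hdac8 from -0.16 to -0.28.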

How the results depend on the processing

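No HDAC gene passed the edgeR or DESeq2 adjusted p of 0.05 under any alternative run. The log2 fold change of Hdac6 stayed positive over 20 alternatives, 0.361 to 0.822, with adjusted p from 0.0617 (DESeq2) to 0.778 over 18 tests. The authors' log2 means gave differences of 0.415 (7 tumours) and 0.361 (8) for Hdac6 and 0.312 and 0.201 for Hdac11. Hdac1, Hdac3, Hdac4, Hdac7 and Hdac9 also kept their direction throughout, but some sizes moved by over 1.5 times. Hdac3 was 0.011 without KP 5, 0.151 without KP 7 and 0.213 with the muscle covariate, Hdac7 was -0.26 without KP 5, -0.267 from the authors' 7-tumour log2 values and -0.753 with the muscle covariate, Hdac4 was 0.15 without KP 6 and 0.486 without KP 7, Hdac1 was 0.142 without KP 8, 0.115 in the low-Xist tumours and 0.476 with the muscle covariate, Hdac11 was 0.375 without KPH2 3, and Hdac9 was -0.301 from the authors' 7-tumour log2 values and -0.115 with the muscle covariate. The other 4 members changed sign under some alternatives, and the cause was not tested. Hdac2 was 0.072 with all 8 tumours, 0.074 by DESeq2 on 8, 0.029 from the authors' 8-tumour log2 values, and -0.343 to 0.05 on leaving out 1 tumour (positive without KPH2 3 or KPH2 4). Hdac5 was 0.039 in the low-Xist tumours, 0.007 from the authors' 7-tumour log2 values, and -0.184 to 0.139 on leaving out 1 tumour (positive without KP 5, KP 7, KPH2 3 or KPH2 4). Hdac8 was 0.002 by DESeq2 on 8 and 0.04 with the muscle covariate, under which Hdac11 was -0.012.

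Of all tested genes, 292 were called, 1 with all 8 tumours, 1175 by DESeq2, 648 by DESeq2 on 8, 3 with the muscle covariate, 26 in the low-Xist tumours, and 55 (without KPH2 2) to 349 (without KP 5) on leaving out 1 tumour, with 73 without KP 7, 130 without KP 6 or KP 8, 153 without KPH2 4 and 159 without KPH2 3. Of the 91 related genes, 0 were called, 1 without robust estimates (Chrnb1), 6 by DESeq2 (Camk1d, Camk2a, Chrnb1, Chrng, Musk, Myog), 2 by DESeq2 on 8 (Chrnb1, Musk), 1 with the Xist covariate and 1 in the low-Xist tumours (Musk in both), and 0 to 2 on leaving out 1 tumour (Chrnb1 without KP 5, Chrnd and Chrng without KP 6, Musk without KP 8). The longest transcript moved the class IIa share in KPH2 2 to 4 from 21.3 to 23.3%. No paired analysis was possible because the groups share no replicate numbers. With 3 and 4 tumours, depth limits Hdac11, Hdac9 and Hdac8 most, at 45 to 241 counts.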
